A study of Mus musculus with 18 samples.

Results

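The IL-3 receptor is built from a ligand-binding alpha chain, IL3Ra, and the beta common chain that IL-3, GM-CSF and IL-5 receptors share. Compared here were 2 mouse progenitor lines, 1 made with the wild-type alpha chain and 1 with the IL3Ra P248L variant, before either line met IL-3. The series title calls the altered receptor a Site 4 mutant. All 3 untreated libraries of each line were used, 6 of the 18 libraries in the series. The question was how far the lines already differed across genes at the start of an IL-3 experiment.

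Both lines are FDH cells, which the labels describe as immortalised cells of mouse fetal liver, taken from BALB/c embryos at E14.5, when the liver is the main blood-forming organ, and used at passages 10 to 12. Their strain background is given as bc-/- bIL-3-/-, while the genotype label names only bc-/-. The chain named bc was put back by transduction, together with wild-type IL3Ra in 1 line and IL3Ra P248L in the other, and the labels do not say from which species the introduced chains came. Untreated cells of both lines grew in IMDM with 10% heat-inactivated serum, penicillin-streptomycin, doxycycline and mouse stem cell factor (SCF) at 100 ng/ml. RNA came from 1000000 cells per condition. With 1 line per receptor, effects of the receptor and of the line cannot be told apart. The labels do not say whether the 3 libraries of a line came from separate cultures. The p-values measure spread between libraries, pooled over all 18 in 6 groups, and not spread between independent lines.

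SCF is the ligand of the receptor tyrosine kinase Kit and keeps immature blood cells alive and dividing. IL-3 signals through the kinase Jak2 and the transcription factors Stat5a and Stat5b, and takes myeloid progenitors towards granulocytes, macrophages, basophils and mast cells. Receptor and JAK-STAT genes, lineage transcription factors and the products of mature myeloid cells are therefore described in turn, after the largest changes.

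Reads assigned to genes numbered 13844612 to 27181962 per library over the 6 libraries. Levels are given as counts per 1000000 reads (CPM) after scaling by the trimmed mean of M values. P248L library 1 stood apart from its replicates. Its counts differed from those of P248L libraries 2 and 3 by a chi-square per degree of freedom of 146.5 and 204.5, against 30.17 between those libraries and 4.919 to 36.61 within the wild-type line. Short transcripts read higher in that library than in the others. A second fit, called trend-removed below, took out each library's smooth trend on transcript length and GC content.

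The lines differed in 2587 of 11942 genes tested (21.7%) at an adjusted p under 0.05 by edgeR's quasi-likelihood test. P248L cells were higher in 1234 genes (10.3%) and lower in 1353 (11.3%). The median size of a called difference was 0.88 on the log2 scale. The libraries of the lines did not overlap in 4100 genes (34.3%), of which 2327 were also called. Large differences leaned to lower values in P248L cells: 304 genes were at least 8-fold lower and 49 at least 8-fold higher. Of these 353 genes, 227 were called in the same direction in all 20 alternative fits, as were 553 of all 2587. The 20 do not include the tests against a 1.5-fold threshold or at an adjusted p under 0.01. The spread within the P248L line, a biological coefficient of variation of 0.28, exceeded that of the wild-type line, 0.12. The fit pooled the spread over all 18 libraries, at 0.17, so it can understate that of the P248L libraries. The total was 1686 without P248L library 1, with 1563 genes in common, 4535 without P248L library 3, 1563 without wild-type library 1 and 1524 without wild-type library 3. It was 1205 when only the 6 untreated libraries were fitted.

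Genes with the largest rises in P248L cells encoded surface proteins, a transporter, a channel and a chromatin remodeller. Glypican-3, encoded by Gpc3 (chrX:52272426-52613974), is a heparan sulphate proteoglycan of the cell surface. It read 0.497, 0.387 and 0.177 CPM in wild-type libraries 1 to 3 and 32.8, 32.6 and 25.7 CPM in P248L libraries 1 to 3. The groups were far apart, and the log2 fold change was 6.41 ± 0.34 (standard error, SE, n = 3 per line, edgeR adjusted p = 1.17e-09). Slc16a7 (chr10:125219270-125389586), the monocarboxylate transporter MCT2, stood at 0.249, 0.0774 and 0.133 CPM in wild-type and 9.46, 10.7 and 14.1 CPM in P248L cells, a log2 fold change of 6.21 ± 0.37. For Chd3 (chr11:69343273-69369499), a helicase of the NuRD chromatin remodelling complex, the values were 1.34, 1.16 and 2.00 CPM against 52.7, 70.4 and 91.3 CPM, or 5.57 ± 0.30 on the log2 scale. All 3 were low in every wild-type library and well read in every P248L library.

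Pdgfrb (chr18:61045127-61085067), a receptor tyrosine kinase of mesenchymal cells, rose from 0.149, 0.387 and 0.133 CPM to 8.44, 12.0 and 10.2 CPM (5.43 ± 0.38). Kcnn4 (chr7:24369826-24385212), a calcium-activated potassium channel, rose from 2.78, 2.86 and 2.66 to 108, 77.7 and 57.4 CPM (4.87 ± 0.30), highest in P248L library 1. Xdh (chr17:73883895-73950397), the purine-degrading xanthine dehydrogenase, went from 1.39, 1.39 and 1.33 to 19.9, 35.0 and 38.6 CPM (4.50 ± 0.24), here lowest in library 1. The order of the P248L libraries thus varied from gene to gene, while none overlapped the wild-type values. Fcgr1 (chr3:96282909-96293969), the high-affinity Fc receptor for IgG, read 1.64, 1.90 and 2.17 CPM and 19.3, 16.2 and 14.1 CPM (3.11 ± 0.18). Nrp1 (chr8:128358591-128505476), a co-receptor for semaphorins and VEGF, averaged 2.78 ± 0.577 CPM and 16.8 ± 2.42 CPM (SD, n = 3) with no overlap (2.60 ± 0.21). Completing the 12 largest rises were Ttc12 (3.49), the actin-binding Ablim1 (3.29), the neurofilament gene Nefh (3.05) and the histone gene Hist1h4b (2.90). Each of the 12 was called in all 20 alternative fits.

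**Figure D1:**
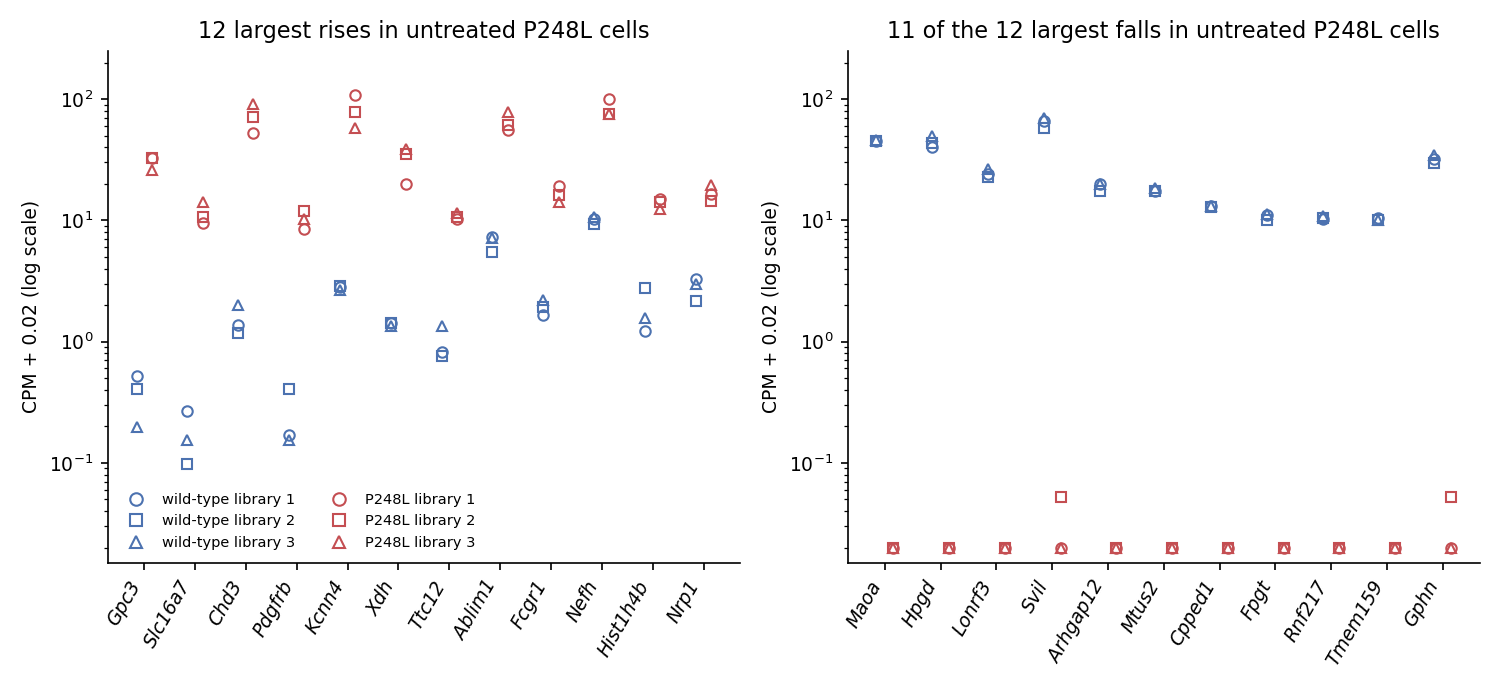
Levels of the genes with the 12 largest rises (left) and 11 of the 12 largest falls (right) in untreated P248L cells. Each point is 1 library, in CPM plus 0.02 on a log axis, with blue for wild-type and red for P248L and the symbol giving the library number. The 3 P248L libraries lie above all wild-type libraries on the left, as in Gpc3, and at or near 0 reads on the right, as in Maoa.

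The largest falls were of another kind, since these genes were well read in wild-type cells and had at most 1 read over all P248L libraries. Svil (chr18:4920467-5119293), which encodes the actin- and membrane-binding supervillin, read 65.4, 57.6 and 69.6 CPM in the wild-type libraries, a total of 4375 reads, against 1 read in P248L cells. The ratio of wild-type to P248L was 4647 (95% interval 834 to 183605). Maoa (chrX:16619698-16687812), the monoamine oxidase A gene, held 3107 wild-type reads at 45.5, 45.1 and 45.6 CPM and 0 reads in P248L cells, at least 1100.2-fold lower when P248L is set at a floor of 3 reads over the group. Intervals and floors cover counting error only. Hpgd (chr8:56294552-56321046), which encodes the enzyme that starts prostaglandin breakdown, read 40.4, 43.1 and 49.1 CPM against 0 reads, at least 1074-fold lower. Gphn (chr12:78217325-78684772), the gene of the scaffold protein gephyrin, read 31.8, 29.4 and 34.7 CPM against 1 read, a ratio of 2319 (95% interval 416 to 91634). Wild-type libraries varied little among themselves in these genes.

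Lonrf3 (chrX:36328358-36366857), a RING finger gene, read 24.2, 22.6 and 26.3 CPM in wild-type cells and 0 reads in P248L cells, at least 588-fold lower. Other large falls, all to 0 reads in P248L cells, were those of the GTPase-activating protein gene Arhgap12 (at least 458-fold), Mtus2 (432), Cpped1 (314), Fpgt (259.9), Rnf217 (255) and Tmem159 (247). In all, 85 genes at a mean of at least 1 CPM in wild-type cells had 3 or fewer reads over the P248L libraries, and 50 of them had none. That is 0.824% of the 10319 genes at this level in wild-type cells. Of the 85, 59 also had 3 or fewer reads in P248L cells both 2 and 5 days into IL-3 (100 ng/ml), while 61 stayed at 1 CPM or more in wild-type cells at both times. Hpgd was an exception on the wild-type side, falling there to a mean of 0.0482 CPM at day 2.

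The 85 genes lay on 19 chromosomes. Of them, 10 were on the X (11.8%), against 3.11% of all genes at 1 CPM or more in wild-type cells. The 10 were Maoa, Lonrf3, Tspan6, Armcx3, Gm595, Maged1, Slc25a43, Nap1l3, Zfp711 and Gpr119, among 360 X genes tested. The reverse pattern was rarer, with 6 genes at a mean of at least 1 CPM in P248L cells and 3 or fewer reads over the wild-type libraries, or 0.0588% of the 10198 genes at this level there. The highest of them was Kctd15, at 9.52 ± 0.63 CPM (SD, n = 3) against 0 reads, at least 215.9-fold higher. The others were 4833442J19Rik, A030009H04Rik, Col25a1, H2afy2 and 5730469M10Rik.

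No receptor gene of the IL-3 family passed the threshold at baseline, though 2 did in the trend-removed fit. Il3ra read 7.41, 11.2 and 7.36 CPM in wild-type and 8.93, 6.23 and 3.59 CPM in P248L libraries, which overlapped (log2 fold change -0.45 ± 0.32, edgeR adjusted p = 0.315, or 0.0161 trend-removed). Csf2rb, the beta common chain, read 92.1, 80.2 and 77.8 CPM against 60.4, 67.7 and 64.2 CPM (-0.38 ± 0.15, adjusted p = 0.0821, 0.136 trend-removed and 0.0127 with the trend removed only within each line). Its near-identical neighbour Csf2rb2, the IL-3-specific beta chain, read 102, 104 and 91.4 CPM against 94.7, 98.0 and 89.0 CPM (-0.08 ± 0.13, adjusted p = 0.703), and reads that map to both copies were not counted. Csf2rb2 was thus read in every library, although the strain background names the chain it encodes as deleted, and counts per gene do not show whether the transcript was intact. Counts per gene cannot separate reads of introduced receptor genes from those of the cells' own loci, and do not show the P248L change. If the introduced chains are not mouse sequence, the counts may not hold them at all. Csf2ra, the GM-CSF receptor alpha chain, stood at -0.49 (adjusted p = 0.0504, 0.00563 trend-removed) and Il5ra, its IL-5 counterpart, at -0.13 (adjusted p = 0.786).

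Markers of the labelled cell type were present in both lines. Kit, the SCF receptor, read 374, 341 and 343 CPM in wild-type and 228, 335 and 353 CPM in P248L libraries (adjusted p = 0.444). The remaining progenitor markers Flt3, Ptprc, Myb and Sfpi1, the last of these coding for PU.1, had log2 fold changes of -0.07, -0.09, 0.01 and 0.10, none past the threshold. Cd34, a surface sialomucin of progenitors, was higher in P248L cells, at 1148, 1092 and 1069.7 CPM against 697, 714 and 723 CPM (0.63 ± 0.13, adjusted p = 0.00185). Hoxa9, a homeobox gene of immature myeloid cells, spread widely within P248L cells, from 11.5, 93.2 and 147 CPM in libraries 1 to 3 against 163, 117 and 229 CPM in wild-type, and was not called (-1.02 ± 0.52, adjusted p = 0.159). Meis1, its partner, was slightly higher (0.42 ± 0.13, adjusted p = 0.034, 0.0661 without P248L library 1), and Hoxb8 had 0 reads in every library. Xist, the RNA of the silenced X in female cells, was near 0 throughout, and Y-linked genes were read in every library. Of the sex-linked list, 2 of 4 tested genes were lower in P248L cells, Kdm5d (-1.0 ± 0.22) and Ddx3y (-0.76 ± 0.20, adjusted p = 0.0525 without P248L library 1), while Eif2s3y stood at -0.21 and Uty at -0.67.

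In the progenitor list, 5 of 24 tested members were higher and 5 lower, with a median of 0.05. This compares with 10.3% higher, 11.3% lower and a median of -0.01 over all genes tested, the background for each list below. For trend-removed counts the shares over all genes were 14.2% higher and 15.2% lower. With the trend removed only within each line they were 19% and 23.2%. Without P248L library 1, 756 genes were higher and 930 lower in all, so list counts from that fit stand against fewer calls. Cd48, Tal1, Sox4 and Meis1 rose beside Cd34. Runx1, a master regulator of blood formation, was 65.0, 59.2 and 63.5 CPM in wild-type and 28.5, 29.4 and 31.7 CPM in P248L cells, with groups well apart (-1.07 ± 0.13, adjusted p = 8.17e-06). Procr, a surface marker of stem cells, read 1.24, 1.70 and 1.42 CPM in wild-type and 0 in P248L cells, at least 35.8-fold lower, and the low genes Mycn and Prom1 also fell.

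Genes of mature neutrophils were mostly lower in P248L cells. In the late neutrophil list, 12 of 20 tested members were lower and 2 higher, with a median of -2.53, or -2.22 with members at 0 reads set at their bounds. The counts were 13 and 2 trend-removed and 12 and 2 without P248L library 1. S100a9, 1 subunit of calprotectin, read 29.3, 45.0 and 35.5 CPM in wild-type and 0.938, 2.36 and 0.576 CPM in P248L libraries (-4.72 ± 0.39, adjusted p = 6.16e-08). S100a8, its partner, read 25.9, 41.1 and 28.2 against 0.788, 2.03 and 0.769 CPM (-4.65 ± 0.40). Both were low next to their levels at day 2 in wild-type cells, 8577 ± 945 CPM for S100a9 and 5288 ± 945 CPM for S100a8 (SD, n = 3). Ngp (-5.17 ± 0.54) and the lactoferrin gene Ltf (-4.26 ± 0.47), whose products fill secondary granules, fell from under 7 CPM. Csf3r, the G-CSF receptor, read 38.7, 35.3 and 42.3 against 11.1, 13.8 and 13.3 CPM (-1.61 ± 0.21). The exceptions were Cxcr2, a chemokine receptor, at 17.4, 12.1 and 13.7 against 34.7, 31.8 and 27.5 CPM (1.12 ± 0.18), and Anxa1 (0.75 ± 0.15), the most abundant member. The summed level of the list was 286.4 to 335.6 CPM in wild-type and 286 to 327.9 CPM in P248L libraries.

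Among monocyte and macrophage genes lower members also outnumbered higher ones, with 8 of 18 tested members lower, 2 higher and a median of -0.90, or -0.69 with members at 0 reads set at their bounds. Without P248L library 1 the counts were 6 lower and 2 higher. Csf1r, the receptor for macrophage colony-stimulating factor, read 28.5, 32.2 and 35.6 CPM in wild-type and 4.88, 5.54 and 5.32 CPM in P248L libraries (-2.61 ± 0.16, adjusted p = 1.67e-09). Mpeg1, which encodes a pore-forming protein of macrophages, read 216, 210.5 and 269 against 47.3, 64.4 and 66.6 CPM (-1.96 ± 0.17). F13a1 (-1.03 ± 0.18), a coagulation factor subunit, and the lysozyme gene Lyz2 (-1.05 ± 0.21) fell by about 1 log2 unit. Fcgr1, described above, and Emr1 (0.46 ± 0.13), the gene of the F4/80 antigen, went the other way. Emr1 lies on chromosome 17, where the median was 0.56 as described below, and the list median outside it was -0.97. Summed levels were 2715 to 2997 CPM in wild-type and 1806 to 2286 CPM in P248L libraries. C1qa, C1qc and Cd163, products of tissue macrophages, were at 0 reads.

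Primary granule genes, which mark promyelocytes, gave 1 lower and 0 higher of 8 tested, and 4 lower trend-removed. The 1 was Elane, neutrophil elastase, at 11.8, 11.6 and 11.6 CPM in wild-type and 4.50, 1.90 and 1.92 CPM in P248L cells (-2.05 ± 0.35). Mpo, myeloperoxidase, was abundant in both lines, at 6748, 7654 and 6817 CPM and 7549, 6314 and 5074 CPM, and was not called (adjusted p = 0.64). Among myeloid lineage transcription factors 4 of 22 were higher and 3 lower, with a median of -0.12. Cebpa, which drives granulocyte fate, read 93.4, 104 and 80.3 CPM against 214, 183 and 135 CPM (0.94 ± 0.20, adjusted p = 0.00255). Irf8, which drives monocyte and dendritic cell fate, read 74.1, 80.5 and 88.2 CPM against 39.9, 40.7 and 34.7 CPM (-1.07 ± 0.18, adjusted p = 3.22e-04). The lines did not overlap in either gene, and the differences had opposite signs. Cebpb, Id1 and Tcf4 were also higher, though the adjusted p of each was over the threshold without P248L library 1 (0.502, 0.106 and 0.064). Ikzf1 fell by 0.55 on the log2 scale, and Maf read 0.796, 1.08 and 1.11 CPM against 0.0375, 0 and 0 CPM.

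Of 9 tested mast cell and basophil genes, 2 rose and 4 fell, or 1 and 3 without P248L library 1. Hdc, which makes histamine, read 46.2, 48.2 and 38.9 CPM in wild-type and 128, 143 and 116 CPM in P248L cells (1.54 ± 0.25, adjusted p = 2.10e-04). The basophil protease gene Mcpt8 rose too (0.93 ± 0.28, adjusted p = 0.14 without P248L library 1). Il1rl1, the IL-33 receptor, fell from 3.28, 3.60 and 3.42 CPM to 0.225, 0.524 and 0.320 CPM (-3.20 ± 0.32). Cd200r3 (-1.06 ± 0.16), Cma1 (-0.94) and Cyp11a1 (-0.79) were the other lower members.

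Cytokine receptor genes tended lower, with 7 of 26 tested members down, 2 up and a median of -0.21, and 12 down trend-removed. Without P248L library 1 the counts were 6 down and 0 up. Besides Csf1r, Csf3r and Il1rl1, the falls included Il6st, which encodes the shared signalling chain gp130. It read 10.4, 7.27 and 11.9 CPM in wild-type and 0.30, 1.11 and 0.961 CPM in P248L cells (-3.64 ± 0.38, adjusted p = 1.58e-06). Il10ra, an IL-10 receptor chain, read 2.64, 2.75 and 3.33 CPM against 0 reads, at least 70.5-fold lower, and Il4ra stood at -0.53. Il2rg, the common gamma chain, was 0.45 ± 0.12, and Epor, the erythropoietin receptor, rose at under 1 CPM.

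The kinases and factors downstream gave 5 lower and 0 higher of 11 JAK and STAT genes, with a median of -0.30. Trend-removed, the counts were the same and the median was -0.13. Without P248L library 1 the counts were 3 and 0. Stat4, which relays IL-12 signals in lymphocytes, read 18.3, 18.1 and 19.1 CPM in wild-type and 0.225, 0.229 and 0.128 CPM in P248L libraries (-6.46 ± 0.27, adjusted p = 1.66e-11). Jak2, the kinase bound to the beta common chain, read 82.3, 73.8 and 91.3 against 28.4, 47.9 and 54.8 CPM (-0.92 ± 0.22, adjusted p = 0.00594). Stat2 (-0.64), Jak3 (-0.79) and Tyk2 (-0.60) were lower too, of which Jak3 and Tyk2 were over the threshold without P248L library 1 (adjusted p = 0.11 and 0.168). Stat5a and Stat5b had log2 fold changes of 0.01 and -0.08, neither past the threshold. Of 15 STAT5-responsive genes, 3 were higher and 0 lower, with a median of 0.16. Trend-removed, 4 were higher with a median of 0.22. Without P248L library 1, 2 were higher and the median was -0.08. The 3 were the cytokine gene Osm (1.89, 2.94 and 2.48 against 13.1, 9.90 and 7.75 CPM, 2.07 ± 0.29), the kinase gene Pim1 (0.60 ± 0.14) and Id1. Among 26 genes of MAPK feedback and the immediate-early response, 4 rose, led by Ier3 (1.31 ± 0.23), and 2 fell, Spry4 (-3.17 ± 0.61) and Dusp4 (-0.79), or 2 and 1 without P248L library 1. Chemokine and cytokine ligands gave 4 higher, among them Il18 at under 3 CPM (3.09 ± 0.48), and 1 lower, Ccl6, of 17, or 2 and 0 without that library. Chromosome 17, where the median was 0.56 as described below, held Pim1, 2 of the 4 rising MAPK genes and 1 rising ligand. Outside it, the STAT5, MAPK and ligand medians were 0.15, 0.05 and 0.04.

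DNA methylation and TET genes, which write and remove methyl marks on cytosine, gave 4 lower and 1 higher of 8, with a median of -0.42 against -0.12 trend-removed, and 2 lower and 1 higher without P248L library 1. Dnmt3a (chr12:3801559-3914443), a methyltransferase of unmethylated sites, read 121, 108 and 123 CPM in wild-type and 24.8, 34.4 and 44.1 CPM in P248L libraries (-1.77 ± 0.16, adjusted p = 1.60e-07). The highest P248L library was below the lowest wild-type one by more than the range of either group. Tet1 read 22.9, 13.9 and 17.2 against 3.23, 5.18 and 9.09 CPM (-1.65 ± 0.33), Tet2 was -0.84 ± 0.25 (adjusted p = 0.104 without P248L library 1) and Tet3 was -0.34 ± 0.12 (adjusted p = 0.752 trend-removed). Uhrf1, which guides methylation of newly made DNA, was higher (0.63 ± 0.12), and lies on chromosome 17, where the median was 0.56. DNA methylation itself was not measured.

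Histone genes had the highest median of the 39 lists with tested members, 1.30, with 10 of 18 higher and none lower, 8 and 0 both trend-removed and without P248L library 1. Hist1h4b read 1.19, 2.75 and 1.55 CPM in wild-type and 14.9, 14.2 and 12.4 CPM in P248L libraries (2.90 ± 0.31). Hist1h2ae (1.82 ± 0.23), Hist1h4d (2.30 ± 0.35) and Hist1h2bb (2.11 ± 0.32) followed. These multi-copy genes are uncertain, because reads that map to several copies were not counted, and they are short, with a median length of 742 bases. Among imprinted genes 2 of 10 rose and 1 fell, or 1 and 1 without P248L library 1. Grb10, an adaptor that dampens growth factor signalling, went from 0.398, 0.464 and 0.754 CPM to 8.33, 8.92 and 9.09 CPM (4.01 ± 0.22, adjusted p = 4.14e-10), and Peg12 from 4.77, 4.68 and 4.39 CPM to 1 read. Of 3 tested Hox cluster genes and cofactors, Hoxc4 rose (3.39 ± 0.46) and Pbx3 fell (-1.05 ± 0.24). Of 8 noncoding RNAs of the nucleus and nucleolus, 3 rose, led by the small nucleolar RNA host Snhg3 (1.31 ± 0.16).

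Differences were unevenly placed along the genome. Of 639 tested genes on chromosome 17, 330 were higher in P248L cells (51.6%) and 21 lower (3.29%), and 85.4% had a positive log2 fold change. Elsewhere 904 genes were higher (8%) and 1332 lower (11.8%). The median log2 fold change was 0.56 on chromosome 17 and -0.04 elsewhere. The other autosomes ranged from -0.07 to 0.05, with -0.11 on the X and -0.72 on the Y, which had only 4 tested genes. Chromosome 17 thus held 26.7% of all higher genes and 5.35% of genes tested. Each library showed the same, with chromosome 17 medians of 0.56, 0.54 and 0.49 above the wild-type mean in P248L libraries 1 to 3 and of -0.03, 0.03 and 0.00 in the wild-type libraries. Reads on that chromosome made up 6.05% to 6.61% of each P248L library and 4.26% to 4.32% of each wild-type library.

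**Figure D2:**
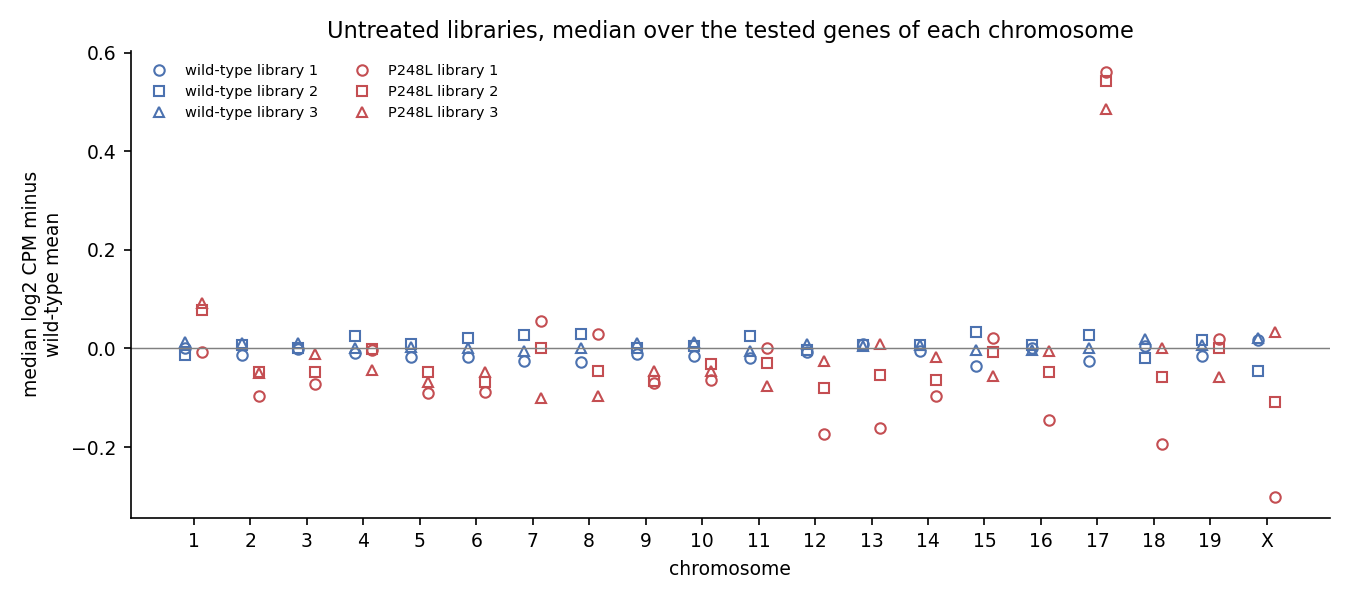
Median over the tested genes of each autosome and the X of log2 CPM minus the mean of the wild-type libraries. Each point is 1 untreated library, and the Y is not drawn. The P248L libraries (red) lie at 0.49 to 0.56 on chromosome 17, apart from the wild-type libraries (blue) and from their own values on the other chromosomes.

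The rise covered the whole chromosome, as the median was positive in 19 of 19 windows of 5000000 bases. Of 373 such windows with at least 10 genes genome-wide, 16 had a median over 0.3 both as fitted and trend-removed, and 15 of these were the 15 chromosome 17 windows of that size. The other held the histone cluster of chromosome 13. Within each quintile of transcript length, chromosome 17 genes exceeded the rest by 0.51 to 0.60. The median was 0.50 trend-removed and 0.46 with scaling by library size alone, which moved the median of all genes to -0.10. It was 0.50 at day 2 and 0.61 at day 5, in libraries that this comparison did not use. DNA copy number was not measured.

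Many MHC genes lie on chromosome 17, so their values are given with and without it. MHC class I genes, which present peptides to T cells, gave 9 higher and 0 lower of 13, with a median of 0.68, and 8 of the 9 were on chromosome 17. Without P248L library 1, 5 were higher with a median of 0.47, and 6 were when only the 6 untreated libraries were fitted. Psmb8, an immunoproteasome subunit, read 185, 238 and 184 CPM in wild-type and 751, 504 and 362 CPM in P248L libraries (1.41 ± 0.21). Tap2, a peptide transporter subunit, read 112, 117 and 111 against 399, 295 and 216 CPM (1.42 ± 0.22), and H2-D1, a class I heavy chain with near copies, was 1.13 ± 0.18. Outside chromosome 17 the median of 3 genes was 0.43, and the light chain gene B2m, on chromosome 2, was 0.68 ± 0.20 (adjusted p = 0.396 trend-removed). Dendritic cell and MHC class II genes gave 2 higher, H2-DMa on chromosome 17 and Itgax, and 1 lower, Siglech (-5.99 ± 0.51), of 9, or 1 and 1 without P248L library 1. Interferon response genes gave 4 higher and 2 lower of 30 (3 and 1 without that library), a share near the background, with Rtp4 (3.20 ± 0.26) and Cmpk2 (1.78 ± 0.24) the largest rises, both at under 5 CPM.

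Counts in the growth and metabolism lists varied with how the length trend was treated, and were lower without P248L library 1. Ribosomal protein genes gave 13 higher and 0 lower of 77 with a median of 0.54. Trend-removed, the counts were 6 and 1 with a median of 0.12, and without P248L library 1 only 2 were higher. With the trend removed only within each line, 42 were higher and 0 lower with a median of 0.48, where 19% of all genes tested were higher. Of the 13, 6 were on chromosome 17, such as Rps18 at 319, 414 and 276 CPM in wild-type and 938, 625 and 501 CPM in P248L libraries (1.03 ± 0.22). Many ribosomal protein genes have processed copies, which leaves their counts uncertain. Oxidative phosphorylation gave 5 higher and 0 lower of 21, 6 trend-removed, 16 with the trend removed only within each line and 0 without P248L library 1. Ribosome biogenesis gave 3 higher of 20, Nop58 (0.62 ± 0.17), Fbl and Dkc1, against 5 trend-removed and 0 without that library. Cholesterol synthesis gave 2 higher of 22, among them Sc4mol, against 5 trend-removed and 1 without that library. Glycolysis gave Ldha (0.67 ± 0.17) and Pfkl higher and Hk1 (-0.71 ± 0.15) and Pfkp lower of 18, or 1 and 1 without it. ATF4 targets gave 1 higher, Atf5, and 1 lower, Sesn2, of 18, neither of them called without it.

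The cell cycle lists differed in their calls. Mitosis genes gave 0 calls of 18 with a median of -0.04, by edgeR, or 1 higher and 5 lower with the trend removed only within each line, and the topoisomerase gene Top2a stood at -0.28 (adjusted p = 0.318). DNA replication genes gave 4 higher and 0 lower of 20, Uhrf1, Gins1, Cdt1 and Pcna, with a median of 0.21, where 10.3% of all genes were higher. Trend-removed, 7 were higher, where 14.2% of all genes were. Without P248L library 1, 2 were higher. Uhrf1 is on chromosome 17, and the list median outside it was 0.19. Of 14 D cyclins and CDK inhibitors, Cdkn1a (p21), on chromosome 17, rose from 31.9, 34.1 and 33.2 CPM to 99.2, 65.2 and 55.3 CPM (1.15 ± 0.21), and Cdkn2a, which encodes p16 and p19ARF, fell from 9.90, 13.2 and 8.21 CPM to 2.66, 2.00 and 1.67 CPM (-2.29 ± 0.26). Cdkn1a was the only higher member of 15 tested p53 targets, of which 6 fell, among them Zmat3 (-0.86 ± 0.15, adjusted p = 0.102 trend-removed) and Mdm2 (-0.47). Without P248L library 1, 2 of these fell. The BCL2 family, which sets survival, gave 1 lower of 14, Bmf (-1.12 ± 0.27).

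Lysosome genes gave 2 higher and 4 lower of 17 (1 and 3 without P248L library 1), the latter led by the cathepsin gene Ctsl at 16.6, 18.3 and 20.4 against 5.78, 4.82 and 3.91 CPM (-1.92 ± 0.15). Of the 2 higher, 1 was on chromosome 17. Integrins and adhesion genes gave 2 higher, Itgb7 (1.23 ± 0.20) and Cd9 (2.06 ± 0.36), and 4 lower, Itgb2 (-0.91 ± 0.14), its partner Itgam (-0.77 ± 0.16), Cd44 and Itga1, of 17. Itgb2 and Itgam form the Mac-1 receptor of myeloid cells, and both groups of libraries were separate in each. The mitochondrially encoded list had no member in the files.

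Defining markers of other cell types were at or near 0, apart from single genes. In the hepatocyte list, Alb, Ttr, Apob, Ahsg and Fga were at 0 reads, yet Hnf4a, a nuclear receptor of liver and gut, read 25.5, 26.1 and 26.8 CPM in wild-type and 96.8, 140.5 and 177 CPM in P248L libraries (2.40 ± 0.20, adjusted p = 7.66e-08). It made up nearly all of the summed 26.4 to 27.5 CPM and 97.5 to 177.7 CPM, and was 1 of 2 tested members. The stromal and endothelial list, summing to 140 to 151.7 CPM in wild-type and 98.9 to 124.9 CPM in P248L libraries, gave Pdgfrb higher and Pecam1 (-0.49 ± 0.10) lower of 4, with Col1a1, Col1a2, Dcn, Cdh5 and Kdr at 0. Erythroid genes gave 1 higher of 3, Epor, with the globins at 0, and their sum was nearly all Tfrc. Lymphoid genes gave 1 lower of 6, Gzmb (-2.70 ± 0.52), and summed to at most 6.11 CPM, with Cd3e and Pax5 at 0. Megakaryocyte genes gave 1 higher and 0 lower of 6, Pf4, though the list median was -0.61, and trend-removed 0 were higher and 1 lower. Eosinophil genes gave 1 higher of 5, Prg3, with a median of 0.12. Pf4 and Prg3 were both at or under 5.44 CPM. Epor, Pf4 and Prg3 were not called without P248L library 1. In such bulk RNA, fewer cells of a type and less RNA per cell cannot be told apart.

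**Figure D3:**
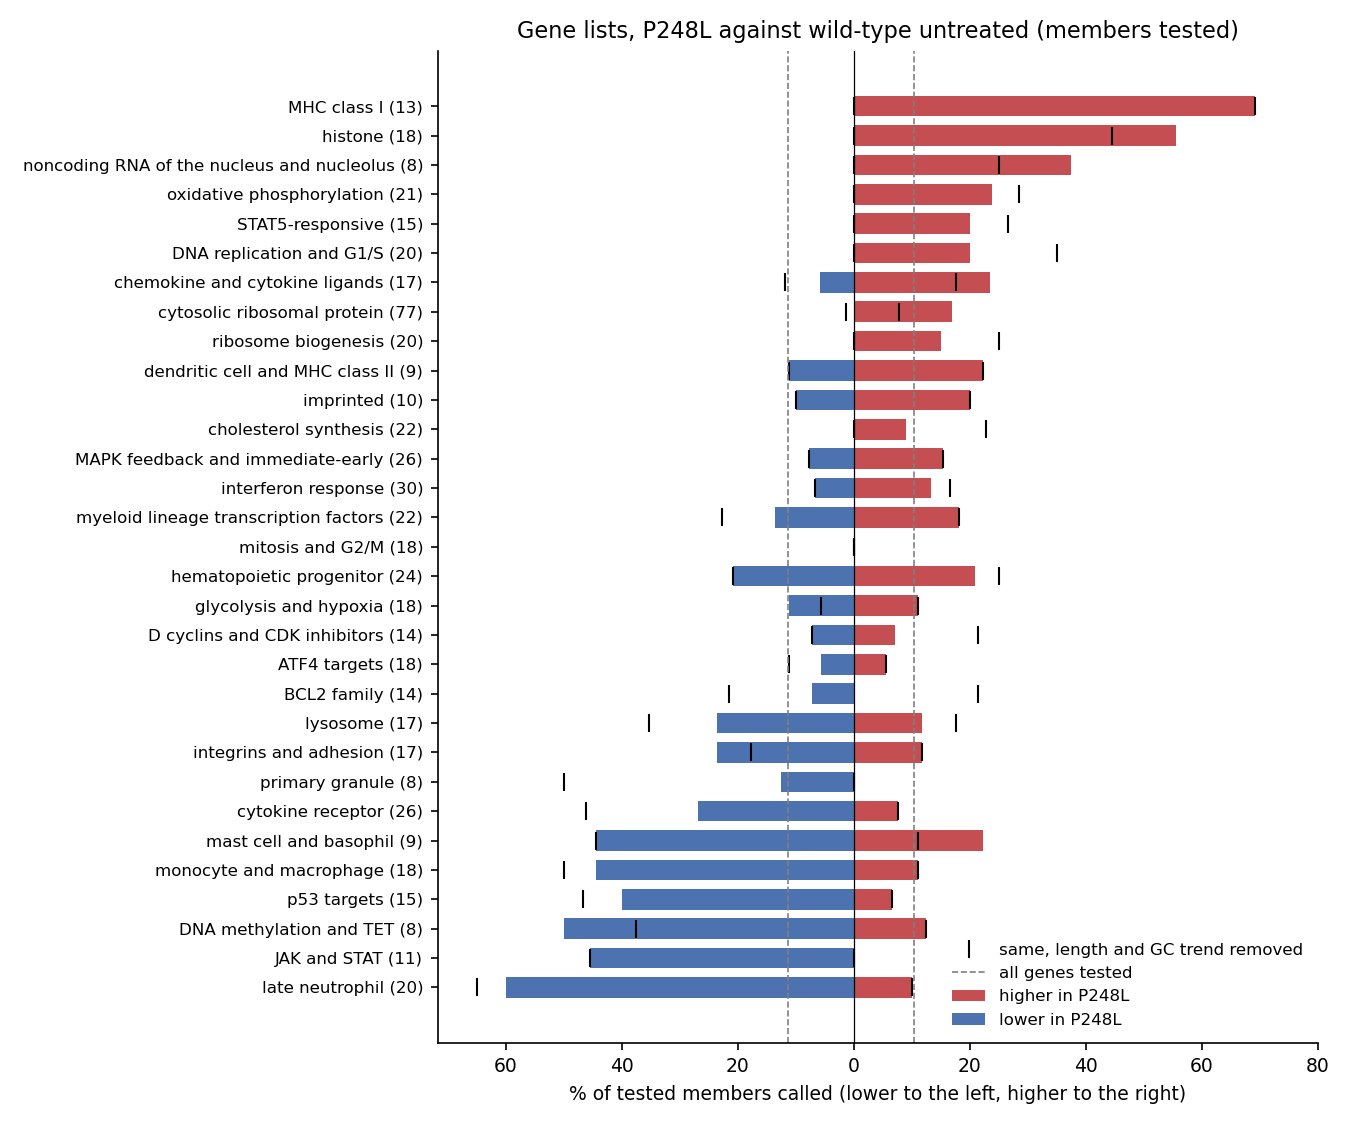
Share of the tested members of each gene list called higher (to the right) or lower (to the left) in untreated P248L cells, with the number tested after each name and dashed lines at the shares over all genes, 10.3% and 11.3%. Late neutrophil genes lie furthest to the lower side, with 12 of 20, and MHC class I and histone genes furthest to the higher side, with 9 of 13 and 10 of 18.

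By absolute level, the largest gains were in Hsp90ab1, the cytosolic chaperone HSP90 beta, on chromosome 17. It read 3325, 3571 and 3554 CPM in wild-type and 8739, 5757 and 5367 CPM in P248L libraries (0.93 ± 0.16, adjusted p = 3.61e-04). Ptma (0.81 ± 0.19), the tubulin gene Tubb5 (0.67 ± 0.16) and the ribosomal protein genes Rpl22 (0.64 ± 0.22) and Rps2 (1.0 ± 0.25) followed. Of these, Tubb5 and Rps2 are also on chromosome 17, and each gene was highest in P248L library 1. Without that library, Rpl22 had an adjusted p of 0.359 and Rps2 of 0.0661. The largest losses were in Serinc3 (-0.47 ± 0.15), Mlec (-0.46 ± 0.13) and 3 long cytoskeletal genes, the myosin heavy chain Myh9 (-0.79 ± 0.20), talin Tln1 (-0.76 ± 0.20) and the beta spectrin Spnb2. Spnb2 read 470.1, 352 and 491 CPM in wild-type and 115, 163 and 221 CPM in P248L libraries (-1.40 ± 0.20). It was called in all 20 alternative fits, while Serinc3 and Mlec were over the threshold without P248L library 1 (adjusted p = 0.161 and 0.0813).

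Some calls were lost when 1 library was left out. Leaving out a library also gives the test of every gene fewer data, so a lost call does not show that it rested on that library. Beside the genes so marked above, Sox4, Ikzf1, Cyp11a1, Il2rg, Il4ra, Dusp4, Ccl6, Mdm2, Tet3, B2m, H2-DMa, Gins1, Cdt1, Pcna, Pfkp, Pfkl, Atf5, Sesn2, Epor, Pf4 and Prg3 were over the threshold without P248L library 1. Without wild-type library 1, calls were lost for Meis1, Rpl22, Serinc3, Tln1, Mlec, Tcf4, Mcpt8, Pf4, H2-DMa, Jak3, Tet2, Ldha, Sc4mol, Gins1, Cdt1, Pcna, Fbl, Nop58, Dkc1, Pfkp, Pfkl, Atf5 and Sesn2. Without wild-type library 3, Ddx3y, Epor, Itgax and Id1 joined these genes, while Tcf4, H2-DMa and Ldha were still called. Without wild-type library 2 or P248L library 2, losses were among Meis1, Serinc3, Epor, Itgax, Pfkp, Sesn2, Pf4, Pcna, Sc4mol, Pfkl and Tet2. Csf1r, Mpeg1, S100a9, Runx1, Cebpa, Irf8, Dnmt3a, Stat4, Hnf4a, Hdc and Cdkn2a were called whichever of the 6 libraries was left out.

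Transcript length trends differed between the libraries. Within a line, a library's deviation from its group mean changed per doubling of length by 0.050, -0.109 and 0.059 log2 units in wild-type libraries 1 to 3. In P248L libraries 1 to 3 it changed by -0.205, 0.037 and 0.169. Between the lines, the median log2 fold change fell over the quintiles of length from 0.35 in the shortest, at a median of 1333 bases, through 0.08, -0.03 and -0.13 to -0.29 in the longest. Of the shortest quintile 20.8% of genes were higher and 4.73% lower, and of the longest 4.73% were higher and 18.4% lower. The gap of shortest to longest was 0.64. Each P248L library on its own gave 1.33, 0.49 and 0.01 against the wild-type mean, so that library 3 showed almost none of it.

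**Figure D4:**
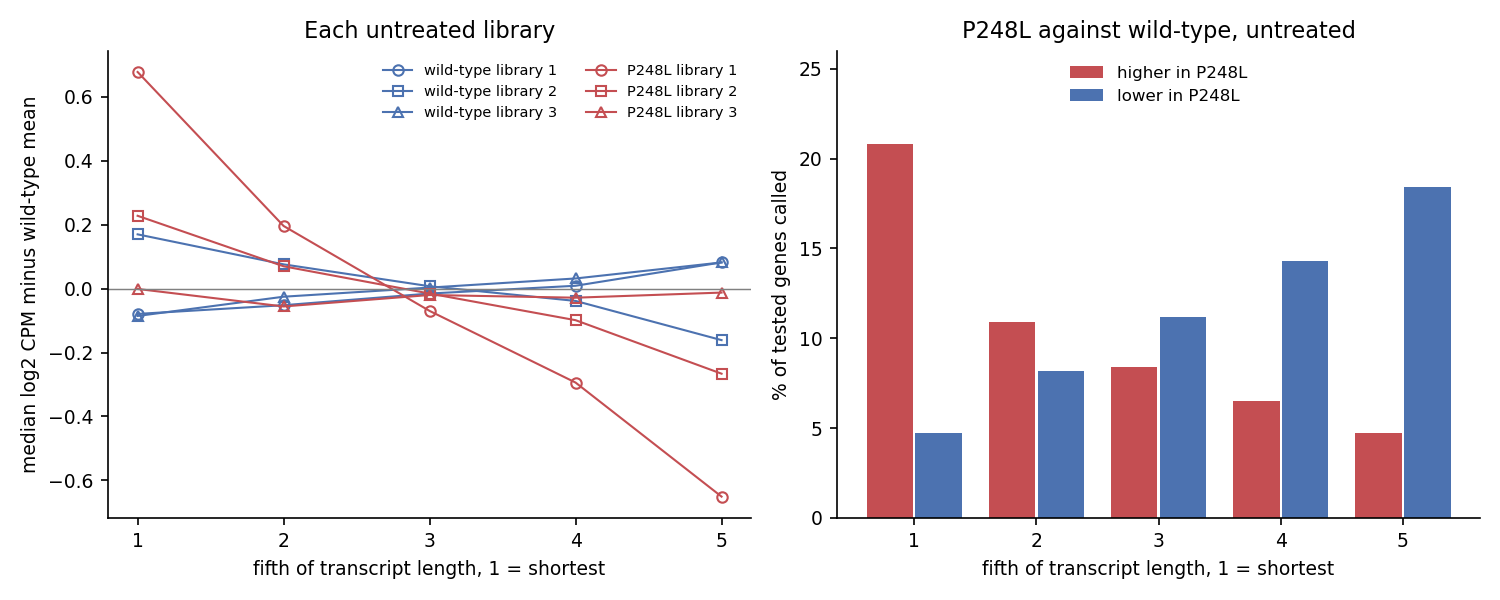
Left, median log2 CPM minus the wild-type mean in each quintile of transcript length, shortest to longest, 1 line per untreated library. Right, percent of tested genes called higher or lower per quintile. P248L library 1 runs from 0.68 to -0.65, library 2 from 0.23 to -0.27 and library 3 stays near 0.

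With the trend over all libraries removed, the gap was 0.03 and 3504 genes were called, 1691 higher and 1813 lower (29.3% of those tested), 2257 of them shared in direction with the first fit. With the trend removed only within each line, which keeps a difference between the lines, 5043 genes (42.2%) were called, 2270 higher (19%) and 2773 lower (23.2%). That fit takes library trends out of the spread between replicates and leaves a gap of 0.63 between length quintiles. Of the shortest quintile 43.1% were higher in it, and of the longest 49% were lower. Its p-values leave out the spread of these trends and can be too small, also where its calls are quoted above. Spearman's rank correlation of fold change on length was -0.401 over genes, -0.236 without P248L library 1 and -0.013 trend-removed, with genes of 1 library sharing its depth and base composition. The 24 largest changes were called in both of these fits.

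Later libraries of the same lines showed which differences lasted. Of the 1234 genes higher untreated, 602 (48.8%) were also higher at day 2 of IL-3, where 15.5% of tested genes were, and 545 (44.2%) at day 5, where 22.8% were. Of the 1353 lower genes, 891 (65.9%) were lower at day 2, against 20.3%, and 694 (51.3%) at day 5, against 22.7%. In the opposite direction, 64 and 151 of the higher genes and 27 and 187 of the lower genes were called at day 2 and day 5. Of the 304 genes at least 8-fold lower, 271 (89.1%) were lower at day 2 and 81.6% at day 5. All times together kept 367 higher and 552 lower genes. These comparisons use other libraries but the same lines, so line and receptor cannot be told apart there either.

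**Figure D5:**
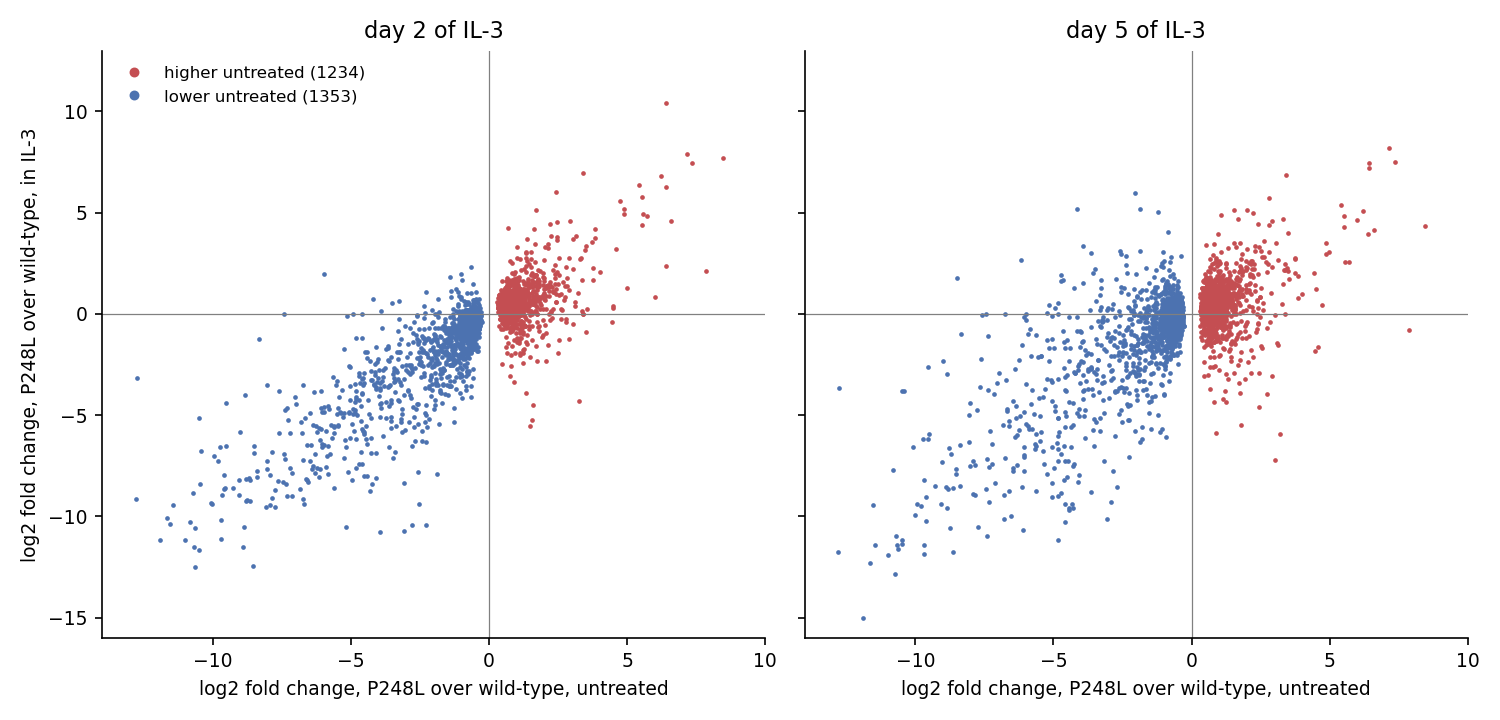
Fitted log2 fold change of P248L over wild-type for the genes called untreated, against the same at day 2 (left) and day 5 (right) of IL-3. Most points lie in the lower left and upper right quadrants, as in Gpc3 and Maoa, and at day 5 the sign was kept in 72.6% of the higher and 70.9% of the lower genes.

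Some named genes kept their difference closely and others lost it. Dnmt3a stood at -1.77 untreated, -1.57 at day 2 and -1.44 at day 5, and Stat4 at -6.46, -6.49 and -7.63. Hnf4a stood at 2.40, 2.43 and 1.97, and Cdkn2a moved further down, to -5.00 and -5.25. Csf1r, at -2.61 untreated, stood at -0.04 and 0.14 at the later times, neither called. Runx1, at -1.07, stood at -0.06 and -0.30, also not called.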

How the data were processed

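The deposited files hold raw counts of reads per gene and strand, made by the authors with STAR on mm10, per the submitters' processing notes. The STAR version and the gene annotation were not given in the sources used here, nor was any RNA selection step. Counts of the strand that held nearly all gene reads were used, since the other strand held 1.6% to 2.54% in the 6 untreated libraries. Reads assigned to no single gene (33.2% to 37.5%) stayed out of library sizes and tests, and reads that mapped to several places were not counted.

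Groups came from the sample titles. All 18 libraries, 3 in each of 6 groups, entered 1 fit with edgeR 4.0.16 in R 4.3.3 (quasi-likelihood, filterByExpr with a minimum count of 10, trimmed mean of M values), without replicate terms. That left 11942 of 23329 genes, called at a Benjamini-Hochberg adjusted p under 0.05 over all of them. Each SE was taken as the absolute log2 fold change divided by the root of its F statistic. Trends on transcript length (GENCODE M21, 99% of tested genes) and GC were fitted with mgcv 1.9.3 and entered as offsets. Coordinates are RefSeq's for GRCm38.p6, the assembly behind mm10, matched by symbol for 99.3% of tested genes. The fits were tested on simulated data.

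Named genes are the receptor and identity genes, the 12 largest rises and 12 largest falls (10 CPM or more in the higher group, no overlap, a common name), the 5 largest differences in level each way, and up to 4 members per list of smallest adjusted p. Members named beyond this, and genes read in 1 line, were chosen after their values were seen. Some genes that these rules pick are not reported here. The comparison and all 40 lists were chosen with earlier results of these data known. Alternatives were DESeq2 1.42.0, limma-voom (limma 3.58.1), other scalings, filters, strands, thresholds, offsets and replicate terms, and leaving out each library. Tests between times, and list medians without chromosome 17 or at bounds, were added after seeing the data. A check of promoter CpG content was void, because 79.96% of tested genes, under the 80% required, had a promoter entry.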

Additional observations from a re-analysis of the deposited data

Results flagged for a closer look

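The difference between the lines was tested against the same difference at day 2 and day 5 of IL-3, as an interaction in the same edgeR fit over all libraries, for the named genes. Listed here are genes of the largest changes that were not called in the same direction later, and named genes at 10 CPM or more that were called in opposite directions. Values are the untreated log2 fold change minus the later one.

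Among the largest rises, Xdh differed by 4.20 from day 2, going from 4.50 to 0.30 as wild-type cells reached 24.6 ± 3.38 CPM (SD, n = 3) and P248L cells stayed at 30.2 ± 4.18 CPM. Fcgr1 differed by 4.63 from day 5, going from 3.11 to -1.51, with 268 ± 7.34 CPM in wild-type and 93.9 ± 12.0 CPM in P248L cells. Nrp1 differed by 2.87 from day 2 and 2.40 from day 5, where it stood at -0.27 and 0.20.

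Some named genes that were lower untreated were higher in P248L cells at a later time. S100a9 was lower still at day 2 (-7.41) and differed by -6.63 from day 5, where wild-type cells read 4534 ± 1215 CPM and P248L cells 17049.8 ± 3447 CPM. S100a8 did likewise, at -6.80 at day 2 and with a difference of -6.33 from day 5. Elane differed by -8.00 from day 5 and was not called at day 2 (0.18). F13a1 differed by -2.99 from day 2 and -4.08 from day 5, where it read 100.0 ± 20.2 CPM in wild-type and 832 ± 59.0 CPM in P248L cells. Irf8 differed by -1.96 from day 2 and was not called at day 5 (0.34). Jak2 differed by -2.03, Myh9 by -1.45, Hk1 by -1.28 and Pfkp by -1.47 from day 5. At day 2 Myh9 (-1.21) and Hk1 (-0.53) were still lower, and Jak2 and Pfkp were not called.

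Several genes that were higher untreated were lower in P248L cells at a later time. Hdc differed by 2.82 from day 2 and 2.93 from day 5, with 50.9 ± 7.92 CPM in wild-type and 19.5 ± 3.34 CPM in P248L cells at day 5. H2-D1 differed by 1.62 from day 2 and 1.94 from day 5, and Tapbp by 2.63 from day 5, after no call at day 2. Osm differed by 3.03, Itgb7 by 2.11, Cdkn1a by 1.88 and Atf5 by 0.95 from day 2, and Hexa by 1.18 from day 5. At day 5 Itgb7 (1.10) and Cdkn1a (0.61) were higher in P248L cells again and Osm and Atf5 were not called, and at day 2 Hexa was higher (0.77).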

How the results depend on the processing

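The count of 2587 genes was 1205 with only the 6 untreated libraries, 5043 with length and GC trends within groups removed, 838 against a 1.5-fold threshold, 1343 at an adjusted p under 0.01, and 1524 to 4535 when 1 library was left out. The 1234 higher genes became 555, 2270, 283, 573 and 663 to 2262 in that order, and the 1353 lower genes 650, 2773, 555, 770 and 860 to 2273. At 1.5-fold the day 2 count of 4274 was 1695 and the day 5 count of 5433 was 2605. Scaling by library size alone gave 862 higher and 1546 lower, so that 35.8% of calls were higher against 47.7%. The chromosome 17 median of 0.56 was 0.46 with library size alone, 0.50 with the trend over all libraries removed, and 0.51 to 0.58 when 1 library was left out. The gap between length quintiles of 0.64 was 0.03 with that trend removed and 0.63 with the trend removed within groups. Same-numbered libraries of the lines correlated at -0.39, -0.22 and 0.37 in their deviations, and differently numbered ones at -0.62 to 0.59. With 3 libraries a line, whose deviations sum to 0 and carry length trends, this cannot show whether the numbers pair them. The labels do not say. With a replicate block 2516 genes were called over 18 libraries, and 584 (200 higher, 384 lower) over the 6. Of 140 named genes past the threshold, 66 stayed past it in all alternative fits, here with the 1.5-fold threshold among them, and 0 reversed. Signs turned in genes that were not called: Csf2rb2 (0.065), Flt3 (0.010), Ptprc (0.15) and Sfpi1 (-0.18) with the trend over all libraries removed, and Sfpi1 (-0.022) and Myb (-0.074) with library size alone. Leaving out 1 library gave -0.32 to 0.085 for Il5ra, -0.12 to 0.035 for Flt3, -0.23 to 0.096 for Ptprc, -0.30 to 0.36 for Sfpi1 and -0.023 to 0.072 for Myb. The cause of these shifts was not tested. With 3 libraries a line and a wider spread in P248L cells, small differences are the least certain, and genes at a few reads give only bounds or wide ratios.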

Other observations

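Outside chromosome 17, few stretches of the genome moved together. The window of 5000000 bases that starts at 20000001 on chromosome 13 and holds the histone cluster had a median log2 fold change of 1.39, or 0.75 with the length and GC trend over all libraries removed. Lower medians in both fits were found in 3 windows. On chromosome 2 the windows starting at 145000001 and 175000001 had medians of -0.51 (-0.37 trend-removed) and -0.68 (-0.85), and on chromosome 3 the window starting at 155000001 had -0.45 (-0.32). Each holds 11 to 14 tested genes.

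Among genes nearly unread in P248L cells, Cd24a, a surface glycoprotein, had 38.7 CPM on average in wild-type cells and 3 reads in P248L cells, a ratio of 943 (95% interval 322 to 4575). It reached 1779.9 CPM in wild-type and 0.444 CPM in P248L cells at day 5. The kinase gene Camk1 averaged 33.6 CPM in wild-type cells against 2 reads, a ratio of 1244 (95% interval 344 to 10282). Of genes nearly unread in wild-type cells, 4833442J19Rik had a ratio of P248L to wild-type of 197 (95% interval 54.1 to 1630.0), and Col25a1, which encodes a collagen, one of 116 (95% interval 20.4 to 4610.2).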
